A study of Caenorhabditis elegans with 12 samples.

Results

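The effect of food deprivation that hermaphrodites and males of the nematode Caenorhabditis elegans have in common was taken from all 12 arrays of the series, as the mean of the fasted-minus-fed change in hermaphrodites and the fasted-minus-fed change in males. Of 22548 probe sets other than controls, 15913 were bright enough to be tested. The 4 groups, with 3 arrays each, were fasted hermaphrodites, fed hermaphrodites, fasted males and fed males, all of the wild-type strain N2 grown at 20 C. Fasted worms spent 48 h on plates without food from day 2 of adulthood, fed worms ate freely over the same days, and whole worms of all groups were collected on day 4. Every group, the fed ones included, was kept from the young adult stage on FUdR (200 ug/ml; a fluorinated deoxyuridine), which stops DNA synthesis and with it the hatching of progeny, so the comparison is between worms whose germ line is under a drug in all 4 groups. The sexes had been parted by filtration through a nylon mesh, and each of 3 independent experiments gave 1 sample to each group. Levels are the deposited log2 signals, and changes are differences of log2 signal, fasted minus fed.

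An adult worm eats bacteria, which it grinds in the pharynx and digests in the intestine with secreted lysozymes and proteases. The intestine is also the main store of fat and takes on many roles of a liver. When food is withdrawn, worms are known to release and oxidise fatty acids under the nuclear hormone receptor NHR-49, to make less unsaturated fat, and to use the lysosome and autophagy under the transcription factor HLH-30. The transcription factor DAF-16, which insulin-like signalling holds out of the nucleus in fed worms, turns on small heat shock proteins, antioxidant enzymes and other stress genes.

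The sex labels matched the marker genes. The summed signal of 23 germline and oogenesis markers was 150936 to 162845 in fasted hermaphrodites and 166800 to 177574 in fed hermaphrodites, and stood at 10031 to 11381 in fasted males and 7432 to 8355 in fed males. The summed signal of 69 sperm markers was 8333 to 19349 in fasted hermaphrodites and 10408 to 58994 in fed hermaphrodites, the highest value of each group being replicate 1, whereas 13 male somatic markers were at 2559 to 4184 and at 3394 to 4082 in these groups. The sperm markers summed to 568113 to 768000 in fasted males and 615510 to 801457 in fed males. Without fed hermaphrodite replicate 1 the counts given below of averaged calls and of shared changes of similar size were 3901 and 2023, and without fasted hermaphrodite replicate 1 they were 4298 and 2182. Arrays of the same group correlated at r = 0.957 to 0.975 across probe sets.

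Averaged over the sexes, fasting changed a large share of the measured transcripts, with the largest falls including genes of digestion, defence against bacteria and the cuticle, and the largest rises including small heat shock genes and far-7, for a fatty acid and retinol binding protein. The averaged change was called for 4596 of 15913 probe sets (28.9% called; limma, Benjamini-Hochberg adjusted p under 0.05), of which 3136 rose (19.7%) and 1460 fell (9.17%). Of these calls 4292 had the same sign in both sexes, 304 had opposite signs, and in 531 the change itself differed between the sexes by the interaction test. That test called 840 of all probe sets (5.28% called), 608 with the higher change in males (3.82%) and 232 with the lower (1.46%). A change was counted as shared and of similar size where the averaged change was called, the sign was the same in both sexes, the smaller change was at least 0.5 of the larger, and the difference between the sexes was not called. This held for 2314 probe sets (14.5% of those tested and 50.3% of the averaged calls), 1446 rises (9.09%) and 868 falls (5.45%), which stood for 1235 and 724 genes. A missed call for the difference does not show that the sexes changed equally: in 149 of the 2314 the unadjusted 95% interval of the difference excluded 0, and in 1490 the whole interval lay within 1 log2 unit of 0.

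**Figure D1:**
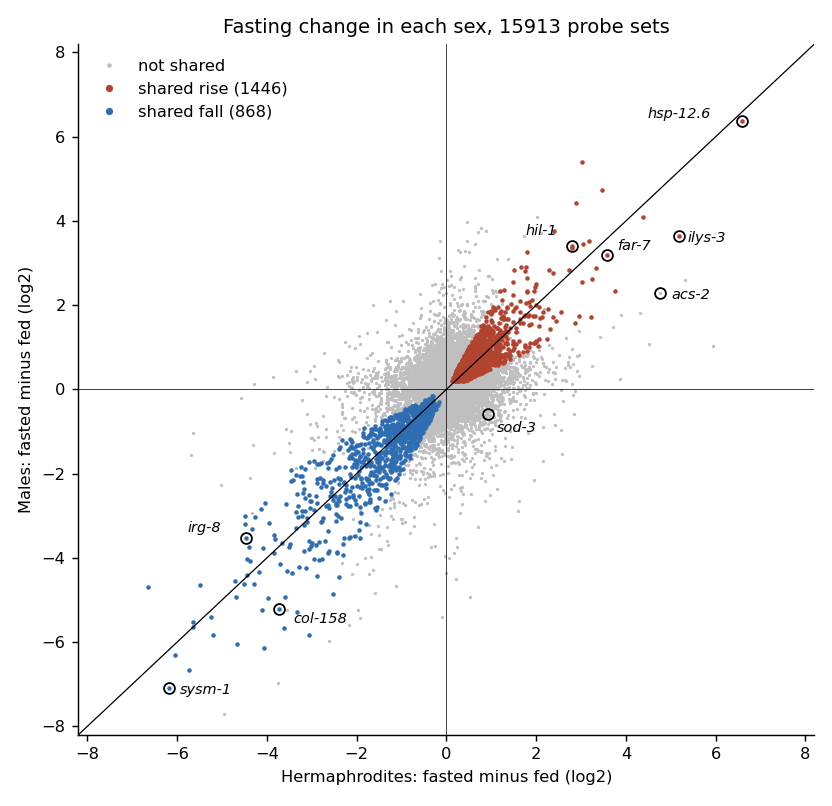
Fasted-minus-fed change (log2) of 15913 probe sets in hermaphrodites (x axis) and in males (y axis), with shared rises of similar size in red (1446), shared falls in blue (868), other probe sets in grey, and the line of equal change in black. The coloured wedges follow from the rule itself; within them the falls extend farther from 0 than most rises, and acs-2 and sod-3, circled outside the wedges, were not shared at similar size.

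Falls were larger than rises. The median averaged change was 0.58 among shared rises and -1.18 among shared falls. At least 2-fold were 226 shared rises and 517 shared falls, at least 4-fold 41 and 201, and at least 8-fold 14 and 77. The 3 fasted arrays and the 3 fed arrays did not overlap, in the same direction in both sexes, for 1676 of the 2314 (72.4%), and 14.6% of all tested probe sets did so. The rule chose the 2314 from these same values, so a higher share is built in and is no separate support. In each sex alone 956 of the 2314 were called in both, 578 in males only and 641 in neither, and the rest in hermaphrodites only. Those 641 were 507 rises and 134 falls. Shared changes lay at higher levels than the tested probe sets as a whole, with a median mean log2 signal of 8.88 for rises and 9.08 for falls, against 8.04 for all tested probe sets.

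The sexes were measured on separate arrays of the same 3 experiments, so the change in each can be set beside the other. The calls in both sexes came from the same fit, with a common estimate of the spread per probe set. Their overlap is therefore not that of independent tests. Of 910 probe sets that rose in hermaphrodites (5.72% of those tested), 805 were above 0 in males and 428 were called there (47%), with a median change of 0.85 in hermaphrodites and 0.55 in males. Of 906 that fell in hermaphrodites (5.69%), 805 were below 0 in males and 655 were called there (72.3%), with medians of -1.38 and -1.18. By comparison 68.7% of all tested probe sets were above 0 in males and 31.3% below. Read the other way, 14.1% of 3029 male rises (19% of those tested) and 49.5% of 1323 male falls (8.31%) were called in hermaphrodites with the same sign. Calls in both sexes came to 1115, which is 61.4% of the 1816 hermaphrodite calls (11.4% of those tested) and 25.6% of the 4352 male calls (27.3%), with 428 rises, 655 falls and 32 of opposite sign. Across the 15913 probe sets the hermaphrodite and male changes correlated at r = 0.546 (Spearman 0.305), and at r = 0.707 over the 8800 with a mean above log2 7.73; probe sets are not independent replicates.

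How many transcripts rose rests on how the arrays are scaled. On the deposited scale the median averaged change of all tested probe sets was 0.17, and 68.2% of the averaged calls were rises. Centring each array on its median put that median at 0.03 and gave 1296 rises and 1770 falls (42.3% rises). Quantile normalization put it at 0.08 and gave 2237 rises and 1671 falls (57.2%). Scaling on the hybridization control probe sets put it at 0.22 and gave 2979 rises and 1212 falls (71.1%). For shared changes of similar size the counts were 1446 rises and 868 falls as deposited, 630 and 1070 after median centring (37.1% rises, against 62.5% as deposited), 1125 and 841 with quantile-normalized arrays (57.2%), and 1437 and 766 when the hybridization controls set the scale (65.2%). Under all 4 scalings at once 1202 were met (7.55%), 585 rises (3.68%) and 617 falls (3.88%). Small rises are therefore changes relative to the array total; for most groups the number of calls that held under every scaling is given.

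**Figure D2:**
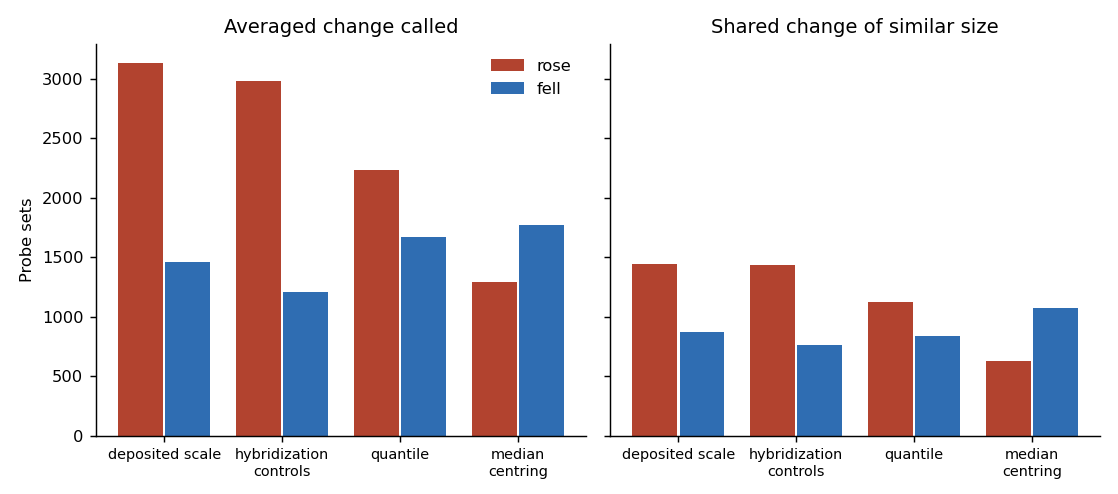
Number of probe sets that rose (red) or fell (blue) under 4 scalings of the same arrays, for the averaged change (left) and for shared changes of similar size (right). Median centring gave more falls than rises (1296 rises and 1770 falls), and the other 3 scalings gave more rises than falls.

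Small heat shock proteins, which bind unfolding proteins, and targets of DAF-16 were among the largest rises. The level of hsp-12.6, a small heat shock gene under DAF-16, was 9.28, 8.65 and 9.20 in fasted hermaphrodites, against 1.45, 1.62 and 4.32 in fed hermaphrodites. Fasted males had 9.28, 8.72 and 10.70, against 2.07, 2.56 and 4.96 in fed males. All 6 fasted arrays were above all 6 fed arrays, and the averaged rise was 6.47 ± 0.60 (SE; adjusted p = 6.44e-06), or 88.7-fold, with 6.58 in hermaphrodites and 6.36 in males. The fed levels were among the dimmest signals of the arrays, and with a pseudocount at the 40th percentile of the signal (64.6) added before the log the rise was 3.22. The linker histone gene hil-1, whose product binds DNA between nucleosomes, stood at 10.71, 10.76 and 11.03 in fasted hermaphrodites, against 7.95, 8.01 and 8.12 in fed hermaphrodites. The male levels were 11.85, 11.74 and 11.72 when fasted, against 8.41, 8.04 and 8.61 when fed. Its groups did not overlap in either sex, giving 3.11 ± 0.11 (adjusted p = 5.77e-09; 8.65-fold), although the male change exceeded the hermaphrodite change by 0.61 (95% interval 0.15 to 1.07), a difference not called after adjustment (adjusted p = 0.113). For hsp-16.20, a heat-inducible member of the hsp-16 family, the levels were 6.84, 7.19 and 7.56 in fasted hermaphrodites, against 2.58, 5.34 and 6.48 in fed hermaphrodites. Arrays of fasted males gave 8.65, 8.66 and 9.07, against 6.05, 5.61 and 3.47 for fed males. Fed arrays scattered over several log2 units below the fasted ones, and the rise of 3.07 ± 0.59 (adjusted p = 0.00214) was 1.66 with the same pseudocount.

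Of 11 small heat shock genes 6 rose and 3 fell (54.5% and 27.3%, against 20.3% and 9.54% of the 12207 genes tested; median 0.87, against 0.17), and all 9 calls held under every scaling. Besides the rises above, hsp-16.41 rose by 0.96 ± 0.22 and hsp-16.2 by 0.87 ± 0.22, both of similar size in the sexes, while hsp-12.3 (3.95) and sip-1 (1.07) rose in the average with a called difference between the sexes. The falls included hsp-17 and hsp-43, at -2.15 ± 0.12 and -1.54 ± 0.12, so the family did not move one way. Of 14 DAF-16 targets 8 rose and 1 fell (median 0.80), 4 of the rises being shared at similar size: hsp-12.6, hil-1, the mitochondrial transhydrogenase gene nnt-1 (1.03 ± 0.16) and the glyoxylate cycle gene icl-1 (0.77 ± 0.17). The probe set of icl-1 can hybridize to several transcripts. Of 11 genes known to be lowered by DAF-16, 8 fell and 0 rose (72.7%; median -1.24), among them dod-24 (-3.26 ± 0.20), dod-17 (-3.15 ± 0.48) and dod-23 (-0.97 ± 0.11). With the pseudocount at the 40th percentile dod-17 changed by -2.05. The list of DAF-16 targets holds hsp-12.6 and hsp-12.3 of the heat shock list too, and both lists were drawn up with earlier results of these arrays known.

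**Figure D3:**
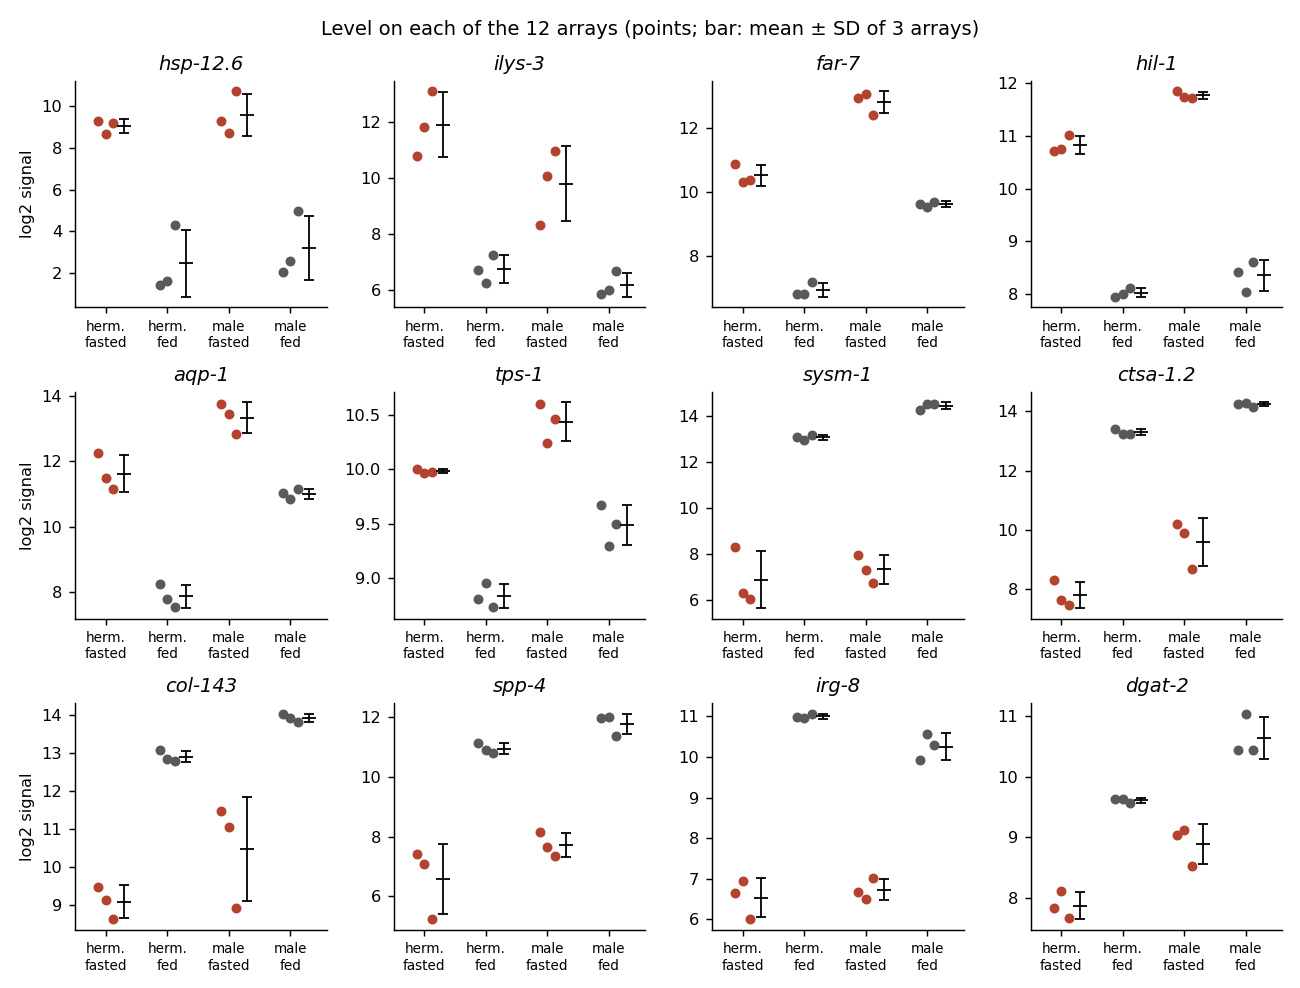
Log2 signal on each of the 12 arrays (points; red fasted, grey fed) with the mean and SD of 3 arrays beside them, for 6 genes that rose and 6 that fell. In each panel and within each sex the fasted and fed points do not overlap, for example 8.65 to 10.70 on fasted arrays, against 1.45 to 4.96 on fed arrays, for hsp-12.6.

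Among genes that carry and oxidise fatty acids, far-7 and hacd-1 rose strongly. The gene far-7, for a binding protein of fatty acids and retinol, had levels of 10.88, 10.30 and 10.37 in fasted hermaphrodites, against 6.82, 6.81 and 7.21 in fed hermaphrodites. In males it was 12.93, 13.05 and 12.40 when fasted, against 9.62, 9.52 and 9.70 when fed. The fasted arrays of each sex lay well above its fed arrays, and the averaged rise was 3.37 ± 0.14 (adjusted p = 1.05e-08; 10.4-fold). The gene for hydroxyacyl-CoA dehydrogenase hacd-1, an enzyme of fatty acid oxidation, read 12.78, 12.26 and 11.86 in fasted hermaphrodites, against 10.39, 10.57 and 10.58 in fed hermaphrodites. Fasted males had 13.70, 13.76 and 11.55, against 9.41, 9.84 and 9.96 in fed males. It rose by 2.53 ± 0.33 (adjusted p = 0.000108), with no overlap in either sex and with 1 fasted male array (11.55) well below the other 2. In the list of 17 lipid binding proteins, which carry fatty acids and related lipids, 2 genes rose and 5 fell (11.8% and 29.4%; median -0.30, with 13 of the 17 below 0). Of these calls 1 rise and 2 falls held under every scaling, and with the replicate number as a block within each sex the counts were 3 rises and 9 falls. In the list of mitochondrial fatty acid oxidation 3 of 29 genes rose and 5 fell (10.3% and 17.2%, against 20.3% and 9.54% of all genes). The falls were led by acdh-1, a short-chain acyl-CoA dehydrogenase gene, at -2.50 ± 0.41 (adjusted p = 0.000668).

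Acyl-CoA synthetases, which activate fatty acids for oxidation or for lipid synthesis, rose for 9 and fell for 4 of 21 genes (42.9% and 19%), with acs-17 (1.13 ± 0.18), acs-3 (1.02 ± 0.19) and acs-21 (0.59 ± 0.13) of similar size in the sexes. Among 10 lipases 3 rose and 3 fell: the hormone-sensitive lipase gene hosl-1 rose by 0.70 ± 0.10 (adjusted p = 0.000234), with 0.69 in hermaphrodites and 0.71 in males, and the lysosomal lipase gene lipl-3 by 1.82 ± 0.41 (adjusted p = 0.00606), while lipl-7 changed by -0.52 ± 0.10. Of 24 genes of peroxisomal oxidation 8 fell and 3 rose, all 8 falls under every scaling, among them the acyl-CoA oxidase genes acox-1.5 (-1.70 ± 0.18) and acox-1.2 (-1.02 ± 0.19) and the dehydrogenase gene dhs-28 (-0.55 ± 0.07), which act in side-chain shortening of ascaroside pheromones. The import receptor gene prx-5 of the same organelle rose by 0.61 ± 0.10. With the pseudocount at the 40th percentile acox-1.2 changed by -0.55.

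Genes of fat synthesis moved both ways. In the list of 21 genes 5 rose and 3 fell (23.8% and 14.3%, against 20.3% and 9.54% of all genes), and 3 of the rises and all 3 falls held under every scaling. The gene for the diacylglycerol acyltransferase dgat-2, which makes triglyceride, read 7.84, 8.12 and 7.67 in fasted hermaphrodites, against 9.64, 9.63 and 9.57 in fed hermaphrodites. The male levels were 9.05, 9.13 and 8.52 when fasted, against 10.43, 11.04 and 10.44 when fed. Groups did not overlap in either sex, and the change of -1.74 ± 0.14 (adjusted p = 2.3e-06) came from -1.74 in hermaphrodites and -1.74 in males, the 95% interval of their difference being -0.62 to 0.62. The stearoyl-CoA desaturase gene fat-7 read 7.37, 7.98 and 7.86 in fasted hermaphrodites, against 8.85, 9.51 and 9.35 in fed hermaphrodites. Arrays of fasted males gave 6.66, 6.75 and 6.39, against 8.59, 8.87 and 9.12 for fed males. Fasted arrays were below fed arrays in both sexes, and it changed by -1.88 ± 0.16 (adjusted p = 2.91e-06; 3.68-fold lower). The fatty acid synthase gene fasn-1 changed by -0.78 ± 0.17, with 1 fed male array (9.47) inside the fasted range. In contrast fat-3, a delta-6 desaturase gene of polyunsaturated fat synthesis, rose by 0.64 ± 0.11 (adjusted p = 0.00126).

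Several genes of sugar metabolism rose. The trehalose phosphate synthase gene tps-1, for the sugar that worms store against stress, read 10.002, 9.97 and 9.98 in fasted hermaphrodites, against 8.80, 8.95 and 8.73 in fed hermaphrodites. In males it was 10.60, 10.24 and 10.46 when fasted, against 9.67, 9.30 and 9.49 when fed. Every fasted array was above every fed array of its sex, with 1.05 ± 0.09 (adjusted p = 4.6e-06; 2.07-fold). The pyruvate kinase gene pyk-2 rose by 0.87 ± 0.08, and pck-2, for the gluconeogenic enzyme phosphoenolpyruvate carboxykinase, by 0.58 ± 0.09 (adjusted p = 0.00059). Of 11 genes of the glyoxylate cycle and gluconeogenesis 5 rose and 2 fell (45.5% and 18.2%), 3 of the rises and 0 of the falls under every scaling: pck-2, icl-1 and the citrate synthase gene cts-1 (0.68 ± 0.06). The gluconeogenic fructose-bisphosphatase gene fbp-1 was among the falls (-0.45 ± 0.14). Of 10 genes of trehalose and glycogen metabolism 4 rose and 1 fell (40% and 10%), and tps-1 was the 1 rise that held under every scaling. Of 16 glycolysis genes 4 rose and 0 fell (25%, against 20.3% of all genes), and pyk-2 was the 1 that held under every scaling.

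Genes of one-carbon metabolism mostly rose, and 3 genes of tryptophan breakdown fell. In the list of the methionine cycle and phosphatidylcholine synthesis 8 of 13 genes rose and 1 fell (61.5% rises), and 5 rises held under every scaling, led by the S-adenosylmethionine synthetase gene sams-5 at 2.78 ± 0.34 (adjusted p = 6.56e-05), with sams-4 at 0.82 ± 0.08 and the phosphoethanolamine methyltransferase gene pmt-1 at 0.65 ± 0.09. The probe sets of these 3 genes can hybridize to more than 1 transcript. Of 32 genes of amino acid breakdown 5 rose and 7 fell, all 7 falls under every scaling. Among the falls were the kynurenine pathway genes tdo-2 (-1.14 ± 0.17), kynu-1 (-1.42 ± 0.13) and haao-1 (-2.2 ± 0.27), which degrade tryptophan step by step, and among the rises the aspartate aminotransferase gene got-2.2 (0.74 ± 0.10).

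Transport and nutrient sensing added further rises. The aquaporin gene aqp-1, for an intestinal water and glycerol channel, read 12.24, 11.48 and 11.13 in fasted hermaphrodites, against 8.26, 7.81 and 7.55 in fed hermaphrodites. Fasted males had 13.73, 13.43 and 12.82, against 11.04, 10.83 and 11.13 in fed males. Fasted and fed arrays were apart in both sexes, and the rise of 3.04 ± 0.20 (adjusted p = 4.16e-07; 8.21-fold) was larger in hermaphrodites, with a male minus hermaphrodite difference of -1.42 (95% interval -2.31 to -0.54), not called after adjustment (adjusted p = 0.063). The gamma subunit gene aakg-4 of AMP-activated protein kinase, the enzyme that senses low energy, rose by 1.52 ± 0.14 (adjusted p = 8.34e-06), and aqp-7 by 1.07 ± 0.15. The peptide transporter family gene pept-3 rose by 1.51 ± 0.18 and mfb-1, named for the muscle atrophy F-box protein of mammals, by 1.49 ± 0.16. Of 28 autophagy genes 10 rose and 0 fell (35.7% rises, against 20.3% of all genes). With the replicate number as a block within each sex 15 rose. Of the 10 rises 4 were at similar size and 5 held under every scaling, with atg-16.2 at 0.78 ± 0.14 and atg-2 at 0.59 ± 0.09. The autophagy medians were 0.17 in hermaphrodites and 0.53 in males, and 2 genes had a called difference between the sexes. Further large rises of similar size were those of icmt-1, which encodes an isoprenylcysteine methyltransferase (1.92 ± 0.31), the flavin-containing monooxygenase gene fmo-1 (1.54 ± 0.26), and srap-1 (2.21 ± 0.27). With the pseudocount at the 40th percentile fmo-1 rose by 1.02.

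**Figure D4:**
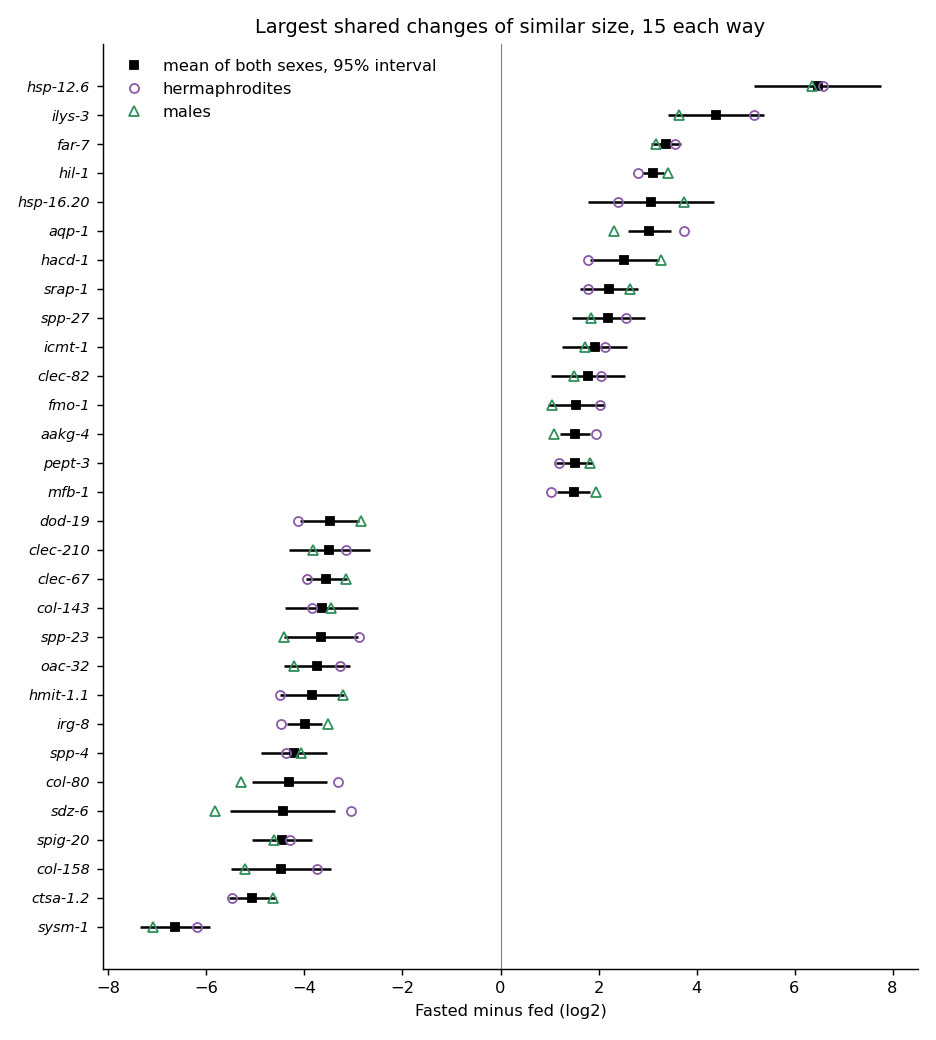
Averaged fasted-minus-fed change (log2; black squares with 95% intervals) of the 15 largest shared rises and 15 largest shared falls of similar size among genes with a locus name, with the change in hermaphrodites (circles) and males (triangles). The falls run from -3.49 to -6.64 and the rises from 1.49 to 6.47, and both sexes lie on the same side of 0 for all 30.

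Protease genes of digestion were among the largest falls. The cathepsin A-like serine carboxypeptidase gene ctsa-1.2 read 8.32, 7.65 and 7.47 in fasted hermaphrodites, against 13.41, 13.23 and 13.24 in fed hermaphrodites. The male levels were 10.19, 9.89 and 8.68 when fasted, against 14.26, 14.28 and 14.15 when fed. Its groups were apart in both sexes, and it changed by -5.06 ± 0.22 (adjusted p = 1.7e-08; 33.4-fold lower). Of 33 genes of intestinal proteases 23 fell and 1 rose (69.7% and 3.03%; median -0.66), with every fall called under all 4 scalings. For 11 of the 33 the change differed between the sexes, and 11 of the falls were shared at similar size, among them those of the aspartic protease genes asp-17 (-1.86 ± 0.25) and asp-4 (-0.91 ± 0.07), of ctsa-4.2 (-1.73 ± 0.16) and of the cathepsin B-like gene cpr-6 (-0.86 ± 0.09). Other large falls lay outside the protease list. The level of sysm-1 was 8.30, 6.31 and 6.03 in fasted hermaphrodites, against 13.08, 12.95 and 13.17 in fed hermaphrodites. Arrays of fasted males gave 7.98, 7.31 and 6.73, against 14.27, 14.53 and 14.51 for fed males. No fasted array came within 4 log2 units of any fed array, and the averaged change was -6.64 ± 0.33 (adjusted p = 4.27e-08; 99.8-fold lower). The transporter genes folt-2 (folate) and hmit-1.1 (inositol) changed by -5.58 ± 0.39 and -3.85 ± 0.30, and bcf-1 by -5.33 ± 0.22 (adjusted p = 1.05e-08); the probe sets of folt-2 and bcf-1 can hybridize to more than 1 transcript, and with the pseudocount hmit-1.1 changed by -2.24.

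Lysozymes and antimicrobial genes, which act on the bacteria that the worm eats or is infected by, fell in the same samples, with exceptions. Of 12 lysozyme genes 7 fell and 2 rose (58.3% and 16.7%; median -1.32), all 9 under every scaling. The invertebrate-type lysozyme gene ilys-5 read 8.97, 8.63 and 8.2 in fasted hermaphrodites, against 14.16, 14.11 and 14.46 in fed hermaphrodites. In males it was 6.48, 6.94 and 6.43 when fasted, against 11.97, 12.83 and 11.996 when fed. Fasted and fed arrays were far apart in each sex, and the change was -5.64 ± 0.18 (adjusted p = 5.77e-09; 50-fold lower), with -5.64 in hermaphrodites and -5.65 in males. Its probe set can hybridize to more than 1 transcript. Its relative ilys-3 went the other way, at 10.80, 11.84 and 13.12 in fasted hermaphrodites, against 6.71, 6.25 and 7.26 in fed hermaphrodites. Fasted males had 8.33, 10.09 and 10.99, against 5.84, 6.01 and 6.66 in fed males. Fasted arrays of ilys-3 spread over more than 2 log2 units in each sex and stayed above all fed arrays, with a rise of 4.40 ± 0.45 (adjusted p = 1.55e-05; 21.2-fold). Among the lys genes, lys-1 (-2.07 ± 0.20), lys-2 (-3.38 ± 0.20) and lys-8 (-1.63 ± 0.11) fell at similar size in both sexes. The probe set of lys-2 can hybridize to several transcripts. The changes of lys-8 were -1.95 in hermaphrodites and -1.31 in males, with a male minus hermaphrodite difference of 0.64 (95% interval 0.14 to 1.13), and it did not meet the rule for similar size under every scaling.

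Of 40 antimicrobial peptide and infection response genes 24 fell and 3 rose (60% and 7.5%; median -0.97), and 23 falls and 2 rises held under every scaling. The infection response gene irg-8 read 6.66, 6.94 and 6.0 in fasted hermaphrodites, against 10.99, 10.95 and 11.07 in fed hermaphrodites. The male levels were 6.68, 6.50 and 7.02 when fasted, against 9.92, 10.56 and 10.29 when fed. Its fasted arrays were below 7.1 and its fed arrays above 9.9 in both sexes, giving -4.0 ± 0.17 (adjusted p = 1.33e-08; 16-fold lower). The saposin-like genes spp-4 and spp-23, of a family that permeabilizes membranes, changed by -4.22 ± 0.31 and -3.66 ± 0.35, whereas spp-27 and spp-31 of the same family rose by 2.2 ± 0.34 and 1.21 ± 0.17. Caenacin genes cnc-4 (-2.82 ± 0.18) and cnc-2 (-2.33 ± 0.23) and the epidermal peptide gene nlp-29 (-1.82 ± 0.25) fell too. C-type lectins, a large family of sugar-binding proteins, were mixed: 36 of 137 fell (26.3%) and 17 rose (12.4%), around a median of -0.02. Examples were clec-67 at -3.56 ± 0.19, clec-210 at -3.49 ± 0.38, clec-3 at -3.39 ± 0.41, and clec-82 and clec-40 at 1.78 ± 0.35 and 1.87 ± 0.25. With the pseudocount at the 40th percentile clec-210, clec-3, clec-82 and clec-40 had changes of -2.04, -1.88, 0.99 and 0.98.

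Cuticle collagens, the structural proteins of the worm's outer coat, mostly fell. Of 82 genes 53 fell (64.6%) and 0 rose by limma (1 rose with the replicate block within sex), 51 of the falls held under every scaling, 44 were shared at similar size, and the median change was -1.55, with -1.42 in hermaphrodites and -1.61 in males. The collagen gene col-143 read 9.47, 9.13 and 8.61 in fasted hermaphrodites, against 13.08, 12.86 and 12.79 in fed hermaphrodites. Arrays of fasted males gave 11.47, 11.05 and 8.91, against 14.05, 13.94 and 13.84 for fed males. Fasted arrays were below fed ones in both sexes, with 1 fasted male array (8.91) more than 2 log2 units under the other 2, and the averaged change was -3.65 ± 0.34 (adjusted p = 7.51e-06). Further falls were those of col-80 (-4.31 ± 0.35), col-160 (-4.56 ± 0.20), col-140 (-3.92 ± 0.19) and col-158 (-4.47 ± 0.47), and the dumpy gene dpy-13, a collagen that shapes the body, at -3.13 ± 0.34. The fasted signals of col-158 were dim, and with the pseudocount its change was -2.0. Of 146 collagen genes on the array the rest were too dim to be tested. Among 11 tested markers of the hypodermis, the tissue that secretes the cuticle, a list that itself includes collagen genes such as dpy-13, 3 rose and 4 fell, 0 of the rises and 3 of the falls under every scaling. The summed signal of the 16 markers on the array was 8370 to 9636 in fasted hermaphrodites, against 15245 to 24232 in fed hermaphrodites, and 7064 to 9915 in fasted males, against 28600 to 44635 in fed males; its part in the collagen falls was not tested.

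**Figure D5:**
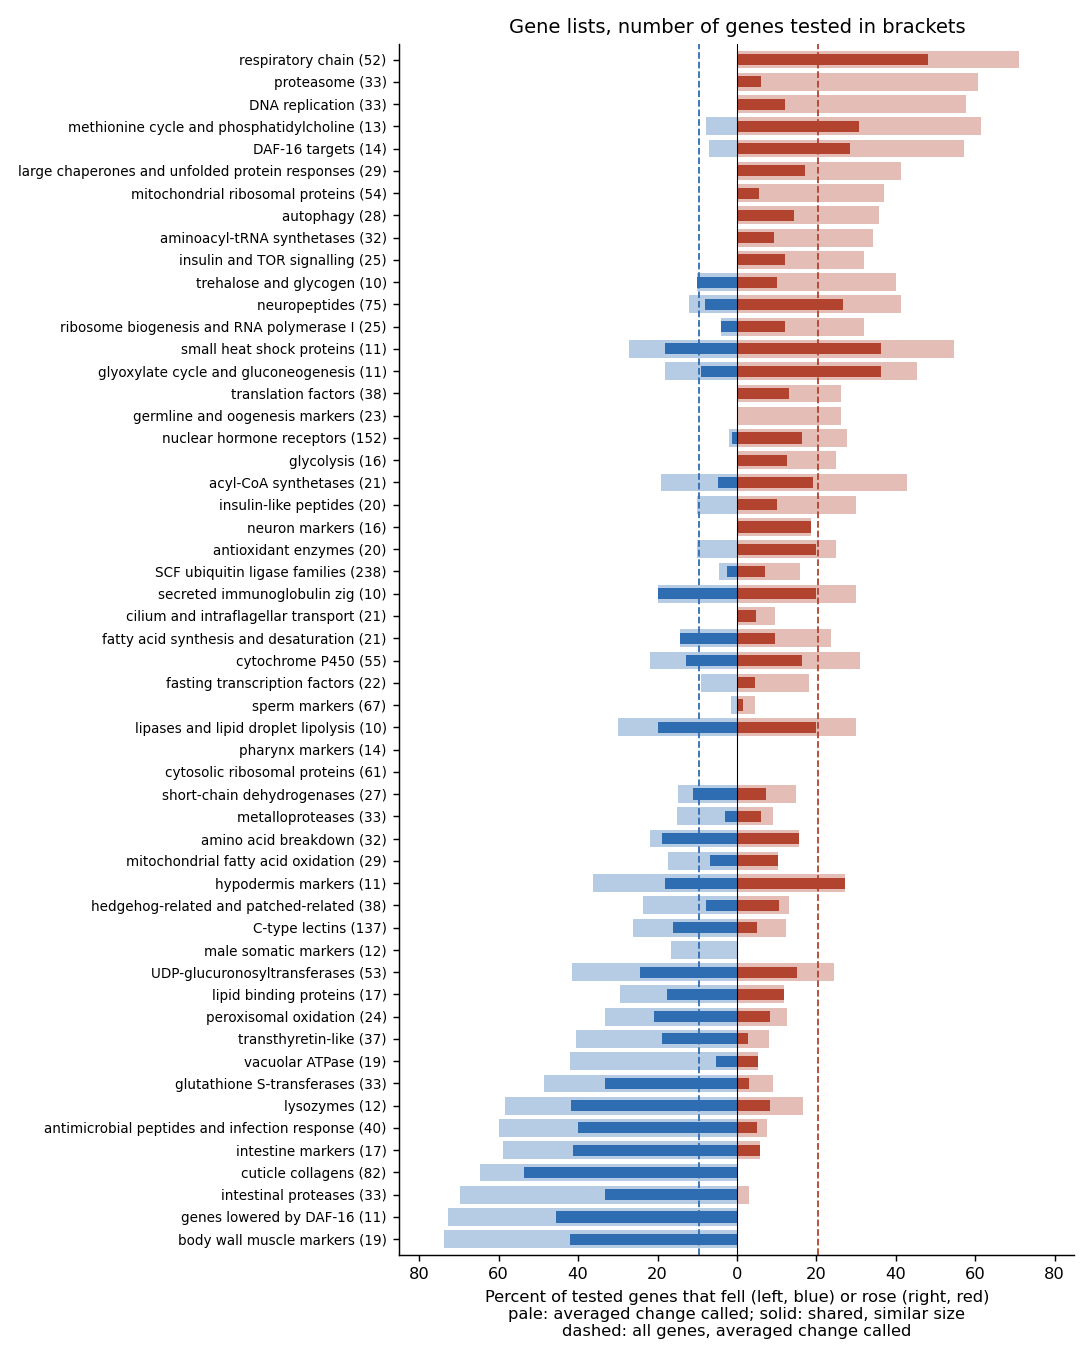
For gene lists with at least 10 tested members, the percentage of members that fell (left, blue) or rose (right, red) in the averaged change (pale) and as shared changes of similar size (solid), with the shares of all 12207 genes (9.54% and 20.3%) as dashed lines. Body wall muscle markers (73.7%), genes lowered by DAF-16 (72.7%) and intestinal proteases (69.7%) reach farthest left, and the respiratory chain (71.2%), the methionine cycle list (61.5%) and the proteasome (60.6%) farthest right.

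Enzymes that detoxify foreign compounds fell in part. Among 33 genes for glutathione S-transferases, 16 fell (48.5%) and 3 rose (9.09%), 15 falls and 0 rises under every scaling, with gst-10 (-2.90 ± 0.26), gst-6 (-2.16 ± 0.20) and gst-4 (-1.67 ± 0.17), the last a known target of the stress factor SKN-1. Among 53 genes for UDP-glucuronosyltransferases, 22 fell (41.5%) and 13 rose (24.5%). The level of ugt-26 was 8.94, 8.51 and 8.47 in fasted hermaphrodites, against 11.43, 11.44 and 11.37 in fed hermaphrodites. In males it was 10.17, 9.89 and 9.88 when fasted, against 13.17, 13.24 and 12.93 when fed. Its groups were tight and apart in both sexes, and it changed by -2.95 ± 0.10 (adjusted p = 5.77e-09; 7.75-fold lower), with ugt-25 at -2.48 ± 0.22 and ugt-22 at -2.40 ± 0.22. Members that rose included ugt-1 (1.42 ± 0.33) and ugt-27 (1.25 ± 0.21), the second at 0.72 with the pseudocount. Cytochrome P450 genes rose for 17 and fell for 12 of 55 (30.9% and 21.8%), with 10 rises and 11 falls under every scaling. Examples were cyp-34A8 at 0.99 ± 0.14 and cyp-36A1 at -1.35 ± 0.13. The extracellular superoxide dismutase gene sod-4 rose by 1.17 ± 0.13 (adjusted p = 3.5e-05).

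Markers of the intestine and of body wall muscle fell along with these groups, while markers of the pharynx were not called. Of 17 intestine markers, which share asp-1 and cpr-1 with the protease list, 10 fell and 1 rose (58.8% and 5.88%; median -0.68), every call under all 4 scalings, with the microvillar actin gene act-5 at -1.93 ± 0.11 and the intermediate filament gene ifc-2 at -0.83 ± 0.10; the intestinal transcription factor gene elt-7 rose by 0.49 ± 0.11. Their summed signal was 19971 to 21837 in fasted hermaphrodites, against 49487 to 56819 in fed hermaphrodites, and 64443 to 87969 in fasted males, against 90505 to 113432 in fed males, and no marker was listed at 0 on any array. Of 19 tested body wall muscle markers 14 fell and 0 rose (73.7%; median -0.62), 11 under every scaling, among them the myosin heavy chain gene unc-54 (-1.57 ± 0.13), the troponin T genes mup-2 (-1.68 ± 0.13) and tnt-2 (-1.64 ± 0.16) and the troponin I gene unc-27 (-1.49 ± 0.15). The muscle medians were -0.31 in hermaphrodites and -0.95 in males. Of the 14 falls 8 were at similar size, and 3 of the 19 markers had a called difference between the sexes. The summed signal of 20 muscle markers was 32397 to 36730 in fasted hermaphrodites, against 40779 to 48206 in fed hermaphrodites, and 44368 to 50942 in fasted males, against 87336 to 96913 in fed males. Of 14 pharynx markers 0 were called by limma, 5 had an unadjusted p under 0.05 and 1 was called with the replicate block within sex. Of 16 neuron markers 3 rose and 0 fell (18.8% rises, against 20.3% of all genes), and 1 rise held under every scaling. After median centring 1 neuron marker rose and 2 fell. In whole worms fewer cells of a type and less RNA per cell cannot be told apart, and the part of these tissue markers in the falls of intestinal and cuticle genes was not tested.

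Large sets of basic genes showed small rises that rest on the scaling. Of 52 respiratory chain genes 37 rose and 0 fell (71.2%), 25 at similar size in the sexes, but their median was 0.30, and 6 rises held under every scaling. The complex I gene ndub-10 read 12.83, 12.90 and 12.90 in fasted hermaphrodites, against 12.31, 12.41 and 12.29 in fed hermaphrodites. Fasted males had 12.37, 12.29 and 12.46, against 11.65, 11.70 and 11.98 in fed males. These values were apart within each sex, with a rise of 0.57 ± 0.07 (adjusted p = 0.000114), and ucr-2.1, of complex III, rose by 0.49 ± 0.09. Of 33 proteasome genes 20 rose and 0 fell (60.6%; median 0.29), 2 of them at similar size and 0 under every scaling. Of 33 DNA replication genes 19 rose and 0 fell (57.6%), 4 at similar size and 9 under every scaling, with medians of 0.14 in hermaphrodites and 0.56 in males. Among 23 germline and oogenesis markers 6 rose and 0 fell, 0 at similar size and 8 with a called difference between the sexes, around medians of -0.19 in hermaphrodites and 0.54 in males, and their part in these rises was not tested. Of 61 cytosolic ribosomal protein genes 0 were called by limma, 1 had an unadjusted p under 0.05 and 1 was called with the replicate block within sex, with averaged changes from -0.15 to 0.16.

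More members rose than fell in 2 regulatory and signalling families, as was so over all genes (20.3% rose and 9.54% fell). The medians were 0.27 for nuclear hormone receptors and 0.34 for neuropeptides, against 0.17 over all genes. After median centring 15 of 152 receptor genes rose and 3 fell, and 13 of 75 neuropeptide genes rose and 9 fell. The shares of all genes on that scale were 8.36% and 11.5%. Among 152 genes for nuclear hormone receptors, 42 rose (27.6%) and 3 fell (1.97%), 25 and 2 at similar size, and 15 rises and 3 falls under every scaling, with nhr-18 at 1.27 ± 0.16 (adjusted p = 9.38e-05), nhr-143 at 1.52 ± 0.31 and nhr-206 at 1.14 ± 0.25. Of 75 neuropeptide genes 31 rose and 9 fell (41.3% and 12%), 12 rises and 9 falls under every scaling. Rises of similar size included flp-2 (0.68 ± 0.09), which encodes FMRFamide-related peptides, and nlp-51 (1.21 ± 0.13), and falls included nlp-26 (-1.34 ± 0.23) and the epidermal nlp-29 named above. The probe set of nlp-51 can hybridize to several transcripts. With the pseudocount at the 40th percentile nhr-143 rose by 0.70 and nlp-26 changed by -0.87.

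Averaging the sexes brought calls for small changes that were called in neither sex alone. The replication licensing inhibitor gene gmn-1 read 10.30, 10.39 and 10.37 in fasted hermaphrodites, against 9.83, 9.67 and 9.76 in fed hermaphrodites. The male levels were 6.96, 7.22 and 6.99 when fasted, against 6.79, 6.77 and 6.07 when fed. Values were apart in both sexes, and the averaged rise was 0.55 ± 0.13 (adjusted p = 0.00743), against adjusted p of 0.0578 in hermaphrodites and 0.0575 in males. The general transcription factor gene taf-3 rose by 0.50 ± 0.12 in the same way, as did smk-1, for a cofactor of DAF-16, by 0.48 ± 0.12, the RNA-binding protein gene tdp-1 by 0.34 ± 0.08, and the epidermal tetraspanin gene tsp-15 by 0.51 ± 0.12. On the other side were phat-7 (-0.54 ± 0.13), the muscle obscurin-like gene unc-89 (-0.51 ± 0.13), fbxa-79 of the F-box family (-0.62 ± 0.16), ttr-17 of the transthyretin-like family (-0.83 ± 0.21) and the neuropeptide gene nlp-16 (-0.92 ± 0.24). Median centring ended the calls of tsp-15, smk-1 and tdp-1, and quantile normalization that of smk-1.

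Several genes best known from fasting were not changes of similar size. The acyl-CoA synthetase gene acs-2, a fasting target of NHR-49, read 12.58, 11.23 and 9.75 in fasted hermaphrodites, against 6.67, 6.37 and 6.23 in fed hermaphrodites. Arrays of fasted males gave 13.88, 13.99 and 12.84, against 10.90, 11.35 and 11.61 for fed males. All fasted arrays were above the fed arrays of the same sex, and the averaged rise was 3.52 ± 0.38 (adjusted p = 2.41e-05; 11.5-fold), with 4.77 in hermaphrodites and 2.28 in males, just under the limit on the ratio of the sexes. The difference between the sexes was -2.48 (95% interval -4.14 to -0.83), with an adjusted p of 0.0781. For lipl-4, a lysosomal lipase gene, the rise was 1.75 ± 0.27 (adjusted p = 0.000425), with 2.72 in hermaphrodites and 0.78 in males. For sod-3, the mitochondrial superoxide dismutase gene and a common reporter of DAF-16, the levels were 8.33, 8.37 and 9.06 in fasted hermaphrodites, against 7.30, 7.72 and 7.95 in fed hermaphrodites. In males it was 9.59, 8.85 and 9.11 when fasted, against 9.96, 9.48 and 9.86 when fed. Fasted hermaphrodites were above fed ones, while 1 of the fasted male arrays lay among the fed male arrays and 2 below them, and the averaged change was 0.17 ± 0.18 (adjusted p = 0.506), with 0.93 in hermaphrodites and -0.58 in males, a called difference (adjusted p = 0.032). The averaged change of fmo-2, another fasting and longevity gene, was 0.22 ± 0.34 (adjusted p = 0.669), with 1.43 in hermaphrodites and -0.99 in males. The gene of HLH-30 itself rose by 0.64 ± 0.13 (adjusted p = 0.00323), and that of DAF-16 by 0.44 ± 0.14 (adjusted p = 0.0361), a call that ended under all 3 other scalings and in 14 of the alternative settings in all.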

How the data were processed

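RNA of 12 whole-worm samples was hybridized to Affymetrix C. elegans arrays, 1 sample per array. The deposited values are log2 signals summarised by the authors with MAS5, per the submitters' processing notes; the version and detection calls are not given in the sources used here. The 2% trimmed mean of the linear signal was 500.1 to 500.2 on every array, so each array had been scaled to 1 total, and a change is relative to it. Of 22625 probe sets, 77 controls were left out, and 15913 of the other 22548 were tested, with a log2 value above 6.01 (40th percentile) on at least 3 arrays; 1171 values on all arrays were exactly 0. Gene names came from the platform's annotation and RefSeq: 20766 probe sets had 1 gene, 887 several and 895 none. A list used the probe set of highest mean per gene. Probe sets that can hybridize to several transcripts are those with the suffix _s_at or _x_at. This limit is not marked for every gene named above.

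Group means were fitted with limma 3.58.1 (lmFit, eBayes with a variance trend; R 4.3.3), two-sided, with Benjamini-Hochberg adjustment over all tested probe sets; every adjusted p comes from it. The number of arrays limits precision. Scripts were tested on simulated data. Each of the 3 experiments gave 1 sample per group, per the series' design text. Within each sex the deviations of same-numbered arrays from their group means correlated at r = 0.119 to 0.274, and between the sexes at r = 0.008 to 0.204. The replicate numbers were therefore taken to pair the arrays, but the main fit did not use this pairing. Counts with the replicate number as a block are given below.

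The members, lists and tests were chosen with earlier results of these data known, and rpa genes were taken out of the ribosomal list after values were seen because rpa-1 encodes a replication protein. Genes were named by 4 rules among probe sets with 1 gene, a locus name and no cross-hybridization suffix: the 15 largest shared changes of similar size per direction above the 60th percentile of level; the 5 lowest adjusted p per direction called in neither sex alone; up to 3 shared members per list and direction; and acs-2, lipl-4, fat-7, sod-3, fmo-2, hlh-30 and daf-16. Other list members, members with cross-hybridizing probe sets, folt-2, bcf-1 and ilys-5 were named after their values were seen. Alternatives were other scalings, pseudocounts, filters, variance models, replicate blocks, an additive model and leaving out each array; all 4 scalings at once was added after seeing the data. No genome or sequence table was used here.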

Additional observations from a re-analysis of the deposited data

Results flagged for a closer look

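The fasting change of sod-3, the mitochondrial superoxide dismutase gene, differed between the sexes in the interaction test: the male change minus the hermaphrodite change was -1.51 on the log2 scale (adjusted p = 0.032, limma), with -0.58 in males and 0.93 in hermaphrodites. The same test called 531 of the 4596 probe sets with an averaged call, of which 297 had the same sign in both sexes and 234 opposite signs; the change was larger in size in males for 414 and in hermaphrodites for 117.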

How the results depend on the processing

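The counts of averaged calls and of shared changes of similar size stayed within 1.5 times their values except as follows. Median centring gave 1296 averaged rises and 630 shared rises. Asking for a smaller change of at least 2/3 of the larger gave 1469 shared probe sets, 885 of them rises. Asking for the 95% interval of the difference to lie within 1 log2 unit of 0, in place of the rule on the ratio, gave 499 shared falls. All 4 scalings at once, chosen after seeing the data, gave 2489 averaged calls (1289 rises and 1200 falls) and 1202 shared probe sets, 585 of them rises. Leaving out 1 array gave 3892 to 4298 averaged calls (2530 to 2935 rises and 1303 to 1406 falls), 2023 to 2200 shared changes of similar size (1201 to 1381 rises and 801 to 866 falls), and 868 to 1045 calls of the same sign in each sex alone. The averaged fasting change of sod-3 turned to -0.022 under quantile normalization, and ran from 0.06 without fasted hermaphrodite replicate 3 upward when 1 array was left out. The averaged fasting change of fmo-2 turned to -0.12 and -0.0089 with pseudocounts at the 40th and 20th percentiles and to -0.0068 under quantile normalization; without 1 array it lay between -0.0054 and 0.37. Neither was called. The cause was not tested.

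With the replicate number as a block within each sex the averaged calls were 5621 (3953 rises and 1668 falls) and the shared changes of similar size 2631. A block over all 4 groups gave 5536 and 2623. Among the lists the block within sex moved 3 counts by over 1.5 times where at least 5 genes were called with it: falls of sperm markers from 1 to 22 of 67, falls of lipid binding genes from 5 to 9 of 17 and rises of aquaporins from 3 to 5 of 9. Counts of 0 or 1 moved by 1 or 2 genes in 8 further lists. Of the named genes with an averaged call, the block within sex ended 2 calls and the block over all groups 1.

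Over the scalings 125 of these calls held under all 3 alternatives, and 124 held under every alternative tried. Median centring ended 27 calls, quantile normalization 16 and hybridization control scaling 7, and leaving out 1 array ended 4 to 8. With 3 arrays per group, small shared rises were the values least settled across the scalings. Dim probe sets changed most in size with the pseudocounts, which ended 0 of these calls.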

Other observations

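The counts of further gene groups can be read against the 20.3% of all genes that rose and the 9.54% that fell. Of 19 genes of the vacuolar ATPase, the proton pump that acidifies lysosomes, 8 fell and 1 rose (42.1% and 5.26%), 5 falls under every scaling, though 1 fall was shared at similar size. Transthyretin-like genes, secreted proteins of mostly unknown function, fell for 15 and rose for 3 of 37, all 15 falls under every scaling, with ttr-31 at -1.01 ± 0.16; with the pseudocount at the 40th percentile it was -0.66. Of 38 hedgehog-related and patched-related genes 9 fell and 5 rose (23.7% and 13.2%), 8 falls and 1 rise under every scaling. Of 5 vitellogenin genes, for the yolk proteins, 3 fell and 0 rose, 1 fall under every scaling. Mitochondrial ribosomal proteins rose for 20 of 54 genes (37%), 3 at similar size in the sexes and 6 under every scaling, with medians of -0.03 in hermaphrodites and 0.51 in males and a called difference between the sexes for 8. Aminoacyl-tRNA synthetases rose for 11 of 32 (34.4%), 3 at similar size and 3 under every scaling, with medians of 0.04 and 0.48 in these sexes. Neither list had a called fall. Translation factors rose for 10 of 38 (26.3%) with 0 falls, 3 under every scaling. Of 238 genes of SCF ubiquitin ligase families 38 rose and 11 fell (16% and 4.62%), close to or under the shares of all genes.

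Shared falls were unevenly placed in the genome. Counted by gene, with the probe set of highest mean, they made up 8.51% of tested genes on chromosome V and 7.77% on X, against 3.06% on chromosome I. Shared rises were 8.27% to 10.9% of tested genes on every chromosome. A neighbouring gene with a shared fall was found for 108 of 713 genes with shared falls (15.1%), against 6.94% of 11188 other tested genes. Without probe sets that can hybridize to several transcripts the shares were 10.9% and 4.96%. No test was run on these shares, and tandem copies of a gene can share probes.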
